A study of Mus musculus with 12 samples.

Results

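Alpha chains of the T cell receptor (TCR) were compared, in CD8+ cells sorted for binding of an Rpl18 tetramer, between MC38 tumors and the tumor-draining lymph nodes (TDLN) of wild-type (WT) mice. The members are the libraries labelled WT tumor (numbers 2, 3 and 4) and WT TDLN (numbers 1, 3 and 4), which are 6 of the 12 libraries of the series. MC38 is a transplanted mouse colon carcinoma line, and Rpl18 is a ribosomal protein from which the tetramer's peptide takes its name. Tissue was taken on day 10 after tumor injection. Both groups carry WT alleles and the same tumor, and differ by the tissue from which the cells were sorted. The other 6 libraries come from tumors and nodes of mice with a CD8-specific TrIP knockout (KO). They enter where they share sequences with the WT libraries, and in the filter and fit of the segment tests. They also enter the starts and ends common to segments, and the results flagged for a closer look. The sources used here give no age, sex or pooling of animals. Each library name starts with a letter that 1 node and 1 tumor library share: A joins TDLN 1 and tumor 2, C joins TDLN 3 and tumor 3, and D joins TDLN 4 and tumor 4. The labels do not say that a letter marks a mouse, nor that libraries of a group are separate mice, so p-values measure only the spread between these libraries.

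Each T cell makes its alpha chain by joining 1 V segment (TRAV) to 1 J segment (TRAJ), with bases trimmed and added where they meet. The stretch across that joint, the third complementarity-determining region (CDR3), lies over the bound peptide, and all descendants of a cell carry the same one. T cells are primed in the draining node, divide there, and can then enter the tumor, so a clone may be read in both places. In bulk RNA, fewer cells of a clone and less receptor RNA per cell cannot be told apart.

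Here a clonotype means the bases of 1 CDR3 together with the V and J segments called for it. The same bases called with another V segment therefore count as another clonotype and another V-J pair. The largest clonotype of each library is printed here because several of the differences below change when they are left out. The bases in capitals are junction bases: they match neither the start common to CDR3s of that V segment nor the end common to CDR3s of that J segment. CDR3s of TRAJ7 are printed as deposited, where they end 1 base short.
WT TDLN 1, TRAV7-2 TRAJ42: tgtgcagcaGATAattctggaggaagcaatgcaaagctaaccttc
WT TDLN 3, TRAV3-3 TRAJ17: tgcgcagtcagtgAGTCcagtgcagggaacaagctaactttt
WT TDLN 4, TRAV6-7 TRAJ7: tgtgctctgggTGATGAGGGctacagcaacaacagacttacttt
WT tumor 2, TRAV14-2 TRAJ22: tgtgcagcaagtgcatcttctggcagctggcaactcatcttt
WT tumor 3, TRAV13-2 TRAJ30: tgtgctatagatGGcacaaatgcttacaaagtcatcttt
WT tumor 4, TRAV16 TRAJ22: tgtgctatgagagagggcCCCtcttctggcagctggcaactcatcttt
The 3 node sequences held 4, 4 and 9 junction bases in that order, and the 3 tumor sequences 0, 2 and 3. All 6 joined different V-J pairs. The V and J segments of the alpha chain lie on chromosome 14 of the mouse.

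Productive TRA reads numbered 82307, 48463 and 15828 in WT TDLN 1, 3 and 4, and 94872, 56454 and 68913 in WT tumor 2, 3 and 4. The run log carries a time-out note for WT TDLN 1 and WT TDLN 3 and for no tumor library. No molecular identifiers are described, so reads of 1 RNA molecule may be counted repeatedly, and every interval and limit covers counting error only. A clonotype with 0 reads may still hold up to 0.00316% (WT tumor 2) to 0.0190% (WT TDLN 4) of a library. Single reads made up 52.3% to 68.2% of the clonotypes. Clonotypes 1 base from another that has at least 100 times as many reads, called 1-base variants here, may be base errors. Merging them would leave 524 of 942, 404 of 821 and 154 of 222 clonotypes in WT TDLN 1, 3 and 4. It would leave 207 of 411, 212 of 492 and 256 of 640 in WT tumor 2, 3 and 4. They were kept as clonotypes in the values below. No read carried the invariant NKT rearrangement (TRAV11 with TRAJ18) or the MAIT rearrangement (TRAV1 with TRAJ33). CDR3s that did not begin with the conserved cysteine took 14.3% of the reads of WT tumor 4, mostly 1 clonotype of TRAV6-5 with TRAJ23 whose start is incomplete, and 0.0506% to 1.65% of the other libraries.

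Several libraries share more with a library of another letter than with their own. The Morisita-Horn index, which runs from 0 for no shared clonotypes to 1 for equal shares, was highest for WT TDLN 1 with WT tumor 4 (0.103), for WT TDLN 3 with KO tumor 3 (0.398), for WT tumor 2 with KO TDLN 1 (0.110), for WT tumor 3 with KO TDLN 3 (0.410) and for WT tumor 4 with KO tumor 1 (0.203). WT TDLN 4 had no partner above 0.000323. Reads in clonotypes that were also read under another letter made up 67.5%, 58.9% and 2.33% of WT TDLN 1, 3 and 4, and 99.1%, 98.0% and 97.9% of WT tumor 2, 3 and 4. Counting only clonotypes at 0.1% or more of a library of another letter, these shares were 66.4%, 57.8% and 1.74% in the nodes and 95.1%, 92.1% and 85.6% in the tumors. Nearly all tumor reads therefore lie in sequences that libraries of another letter also hold, and the tests over libraries do not account for this sharing. WT TDLN 4, with 2.33% of its reads in such sequences, is the exception. Leaving these clonotypes out keeps 26715, 19912 and 15459 reads of WT TDLN 1, 3 and 4 (32.5%, 41.1% and 97.7%) but only 868, 1151 and 1425 reads of WT tumor 2, 3 and 4 (0.915%, 2.04% and 2.07%).

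A further deposited sheet of all chains covers WT TDLN 4 and the 3 WT tumor libraries, and its TRA rows differ from those of the TRA table analysed here. Of the 20 leading clonotypes of these 4 libraries (5 each), 5 had 0 reads in it. The TRAV14-2 TRAJ22 clonotype of WT tumor 2 held 82.1% of that sheet's TRA reads against 85.4% in the TRA table. The TRAV13-2 TRAJ30 clonotype, which led WT tumor 3 with 40.2% in the TRA table, had 0 of the 8403 TRA reads of that sheet, which allows up to 0.0357%. The TRAV6-7 TRAJ7 clonotype of WT TDLN 4 held 0.296% there, or 59.0% with sequences that match it up to the last 3 bases. The next 3 clonotypes of WT tumor 3 (16.1%, 11.2% and 9.54% in the TRA table) had 0, 1 and 5 reads in that sheet. Sequences in both sheets held 31.7% of the TRA table's reads of WT tumor 3. This share was 81.6% in WT TDLN 4, 85.4% in WT tumor 2 and 87.8% in WT tumor 4. The 4 leading clonotypes of WT tumor 3 thus rest almost wholly on the TRA table. Why the sheets differ is not stated in the sources used here. That sheet held reads of TRA and TRB alone in these 4 libraries, with 0 from immunoglobulin, gamma or delta chains.

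The question of the first comparison is whether tumor repertoires are more dominated by few clones than those of the node. A few clonotypes held most reads in both tissues. The largest clonotype took 44.8%, 12.7% and 77.5% of WT TDLN 1, 3 and 4, and 85.4%, 40.2% and 20.9% of WT tumor 2, 3 and 4. The groups overlap, and the mean differed by 3.81 percentage points (44.99 ± 32.4 in node, 48.8 ± 33.1 in tumor, SD, n = 3 each; exact two-sided permutation p = 0.8). With clonotypes read under another letter left out it turned to -25.1 points (exact p = 0.3). The order of the libraries by this measure mixes tissues: a tumor library was highest and a node library lowest.

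Below the largest clonotype the tissues were further apart. The 10 largest clonotypes together took 79.8%, 57.9% and 88.8% of the node libraries and 98.2%, 92.7% and 84.7% of the tumor libraries. The tumor mean was 16.4 points higher (exact two-sided p = 0.2), with WT TDLN 4 lying inside the tumor range. Among the few tumor reads in clonotypes not read under another letter, the difference turned to -28.99 points (exact p = 0.1). With the largest clonotype of each library left out, the next 10 took 65.8%, 54.1% and 51.7% of the remaining node reads and 88.5%, 89.9% and 83.8% of the remaining tumor reads, which do not overlap. This setting of the top 10 was looked at after its values were seen and has no test. Reads outside the 10 largest fell mostly in ranks 11 to 100, which held 18.2%, 38.8% and 10.4% of the node libraries and 1.42%, 6.51% and 14.3% of the tumor libraries. WT TDLN 3 was the most even library: 8 clonotypes made up 50% of its reads and 56 made up 90%. The corresponding numbers were 2 and 22 in WT TDLN 1, 1 and 14 in WT TDLN 4, 1 and 2 in WT tumor 2, 2 and 9 in WT tumor 3, and 3 and 13 in WT tumor 4.

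**Figure D1:**
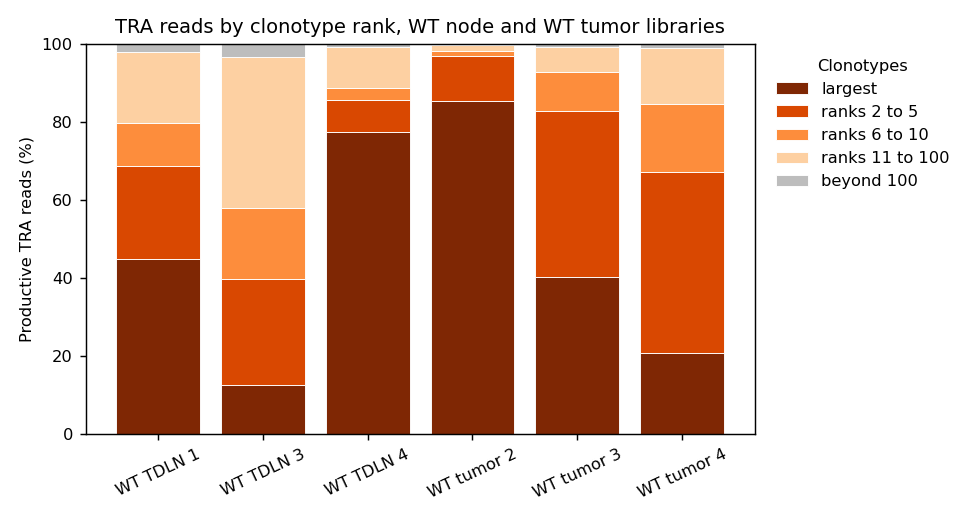
Stacked bars give the percent of productive TRA reads held by the largest clonotype and by ranks 2 to 5, 6 to 10, 11 to 100 and beyond 100 in each WT library. The largest clonotype ranges from 12.7% to 77.5% in node and from 20.9% to 85.4% in tumor libraries, and ranks 11 to 100 are widest in WT TDLN 3 (38.8%).

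Clonality is 1 minus the Shannon entropy of the clonotype shares divided by its maximum. It was 0.613, 0.428 and 0.739 in the node libraries and 0.875, 0.655 and 0.588 in the tumor libraries. The difference of 0.113 was within the spread between libraries (exact two-sided p = 0.5). Without the largest clonotypes the values were 0.480, 0.410 and 0.277 in node and 0.620, 0.604 and 0.580 in tumor, a difference of 0.212 with no overlap (exact p = 0.1, the smallest that 3 against 3 libraries allow). With the clonotypes read under another letter left out, clonality instead differed by -0.336 (exact p = 0.1). That setting describes the rare tumor clonotypes, 1-base variants among them, since it keeps less of the tumor than of the node libraries, as counted above.

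Fewer clonotypes were counted in tumor libraries at equal depth, with overlap between the groups. At 15828 reads, the depth of the smallest library, 336, 397 and 222 clonotypes were expected in the node libraries and 131, 204 and 236 in the tumor libraries. The difference was -127.6 (318.3 ± 88.8 in node, 190.7 ± 53.9 in tumor, SD, n = 3 each; exact two-sided p = 0.2). WT tumor 4 lay above WT TDLN 4. With clonotypes read under another letter left out the difference was 239.9 (exact p = 0.1), counted at a depth of 868 reads, all that was left in WT tumor 2. Those reads were spread over 345 clonotypes, 1-base variants among them.

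The deposited metrics of the beta chain (TRB) also overlapped between the tissues. The top TRB clone took 56.8%, 17.3% and 89.9% of the node libraries and 84.4%, 42.8% and 22.6% of the tumor libraries (difference -4.73 points, exact two-sided p = 0.8). The top 10 TRB clones took 82%, 63.6% and 94.1% in node and 97.3%, 91.4% and 82.9% in tumor (difference 10.6 points, exact p = 0.4). In the rows of the all-chain sheet the leading TRB sequence held 35.5% of TRB reads in WT TDLN 4, 56.8% in WT tumor 2, 46.5% in WT tumor 3 and 42.6% in WT tumor 4. These 4 sequences, all different, are printed in lower case to identify the leading beta chains.
WT TDLN 4, TRB: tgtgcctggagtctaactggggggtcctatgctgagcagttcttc
WT tumor 2, TRB: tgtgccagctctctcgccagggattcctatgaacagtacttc
WT tumor 3, TRB: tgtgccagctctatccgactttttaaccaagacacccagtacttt
WT tumor 4, TRB: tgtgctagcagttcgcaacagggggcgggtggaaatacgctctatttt
These shares differ from the deposited metric of the same libraries, which lies nearer to the share of the largest TRA clonotype in all 4, and how that metric was computed is not stated.

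The next comparison asks which V-J pairs each tissue used. No pair was common to a tissue at a high level: 37 pairs reached 1% of reads in some WT node library and 24 in some WT tumor library, 12 of them in both tissues, and 0 reached 1% in all 3 libraries of either tissue. Of 301 pairs tested on read counts (edgeR quasi-likelihood test with Benjamini-Hochberg adjustment at 0.05), 0 were higher in tumor and 0 lower, 0% in either direction, and 2 had an unadjusted p under 0.05. DESeq2 called 17 pairs, 6 higher and 11 lower. The spread between libraries of a group was wide, with an edgeR coefficient of variation of 4.03.

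The leading pair of each tissue belonged to 1 library. TRAV14-2 with TRAJ22 took 86.5% of WT tumor 2, 0.407% of WT tumor 3 and 0% of WT tumor 4, against 0%, 0% and 0.0632% in WT TDLN 1, 3 and 4. Its share in WT tumor 2 was almost wholly its leading clonotype, at 85.4%. TRAV6-7 with TRAJ7 took 79.3% of WT TDLN 4, 4.18% of WT TDLN 3 and 0.00364% of WT TDLN 1, and at most 0.00354% of a tumor library. TRAV7-2 with TRAJ42 took 54.6% of WT TDLN 1 and 1.00% of WT tumor 4, and TRAV13-2 with TRAJ30 took 40.99% of WT tumor 3. TRAV16 pairs led WT tumor 4: TRAV16 with TRAJ22 took 21.5% of it and 1.31% of WT TDLN 1, and TRAV16 with TRAJ32 took 18.3% and 1.34%. None of the 9 leading pairs passed the test, with edgeR adjusted p from 0.405 to 1.

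**Figure D2:**
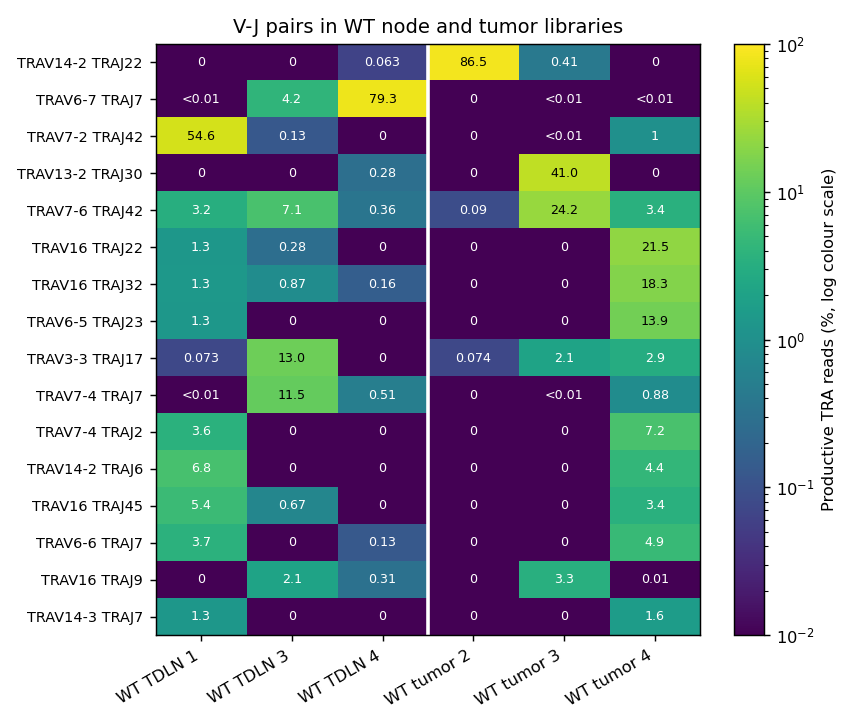
Each cell gives the percent of productive TRA reads of a WT library (columns, node left of the white line) in a V-J pair (rows), on a log colour scale. Most pairs are bright in 1 library and dark in the others of the same tissue, and TRAV7-6 with TRAJ42 is the pair read in all 6 libraries at 0.0896% or more.

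TRAV7-6 with TRAJ42 was the pair shared most widely. It took 3.17%, 7.09% and 0.360% of WT TDLN 1, 3 and 4, and 0.0896%, 24.2% and 3.41% of WT tumor 2, 3 and 4, and so was among the leading pairs of both tissues (log2 difference 1.38, edgeR adjusted p = 1). It reached 1% in 4 of the 6 libraries. WT TDLN 1 and WT tumor 4 both held clonotypes b (0.932% and 2.52%) and c (0.716% and 0.821%), and WT TDLN 3 and WT tumor 3 both held clonotype f (0.716% and 1.27%). Its clonotypes at 0.1% or more all had a CDR3 of 15 residues and differed mainly across the joint, as the capitals show. The leading members of each library and those at 0.1% or more in both tissues are shown.
Clonotype a, WT TDLN 1: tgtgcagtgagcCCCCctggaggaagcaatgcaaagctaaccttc
Clonotype b, WT TDLN 1 and WT tumor 4: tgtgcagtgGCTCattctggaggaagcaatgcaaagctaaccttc
Clonotype c, WT TDLN 1 and WT tumor 4: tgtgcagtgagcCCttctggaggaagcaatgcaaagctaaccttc
Clonotype d, WT TDLN 4: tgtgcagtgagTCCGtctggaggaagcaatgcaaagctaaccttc
Clonotype e, WT TDLN 3: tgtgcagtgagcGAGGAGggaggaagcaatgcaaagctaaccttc
Clonotype f, WT TDLN 3 and WT tumor 3: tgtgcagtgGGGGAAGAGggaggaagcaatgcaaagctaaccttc
Clonotype g, WT tumor 3: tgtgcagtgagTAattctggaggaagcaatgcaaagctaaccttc
Clonotype h, WT tumor 3: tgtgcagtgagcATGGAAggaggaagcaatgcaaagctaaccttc
Clonotypes g and h took 11.2% and 9.54% of WT tumor 3, and clonotype e took 3.76% of WT TDLN 3. In the all-chain sheet g and h had only 1 and 5 of the 8403 TRA reads of WT tumor 3. Clonotypes c (0.716% of WT TDLN 1) and d (0.208% of WT TDLN 4) encode the same CDR3 protein with different bases.

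The V and J segments were then tested singly. Of 47 TRAV segments tested, 1 was lower in tumor (2.13% called) and 0 were higher (0% called), while 16 had an unadjusted p under 0.05. The called segment was TRAV6-7, at 0.00972%, 5.10% and 80.8% of WT TDLN 1, 3 and 4 and at 0%, 0.0266% and 0.0218% of WT tumor 2, 3 and 4. The groups overlap, since WT TDLN 1 lies below 2 of the tumor libraries. The fitted log2 difference was -10.78 (edgeR adjusted p = 0.0414). The call was lost without the largest clonotype of each library (log2 difference -8.11, adjusted p = 0.118) and without WT TDLN 4 (log2 difference -7.29, adjusted p = 0.275). It was also lost without WT TDLN 3 or any 1 of the 3 tumor libraries (0.0540 to 0.103), and with the TRAJ7 frame as deposited (0.169). The fit includes the KO libraries, and with the WT libraries only the call was lost too (edgeR adjusted p = 0.211). Of 43 TRAJ segments, 0 were higher and 0 lower in tumor (0% called in each direction), and 11 had an unadjusted p under 0.05. DESeq2 called 9 TRAV segments, all lower in tumor, and 13 TRAJ segments, 12 of them lower. TRAJ22 took 1.83%, 0.885% and 0.0632% of the node libraries and 86.9%, 0.420% and 23.4% of the tumor libraries (log2 difference 5.32, edgeR adjusted p = 0.219). TRAJ7 took 6.46%, 15.8% and 80.2% of the node libraries and 0.00211%, 0.0106% and 7.68% of the tumor libraries (log2 difference -3.73, adjusted p = 0.391). TRAV16 took 9.43%, 5.596% and 1.16% in node and 11.02%, 3.56% and 45.1% in tumor (log2 difference 1.88, adjusted p = 0.478).

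J segments are numbered from the end near the V genes (high numbers) to the end near the constant region (low numbers). Grouped by number, TRAJ21 to TRAJ40 took 11.8%, 20.3% and 12.5% of the node libraries and 87.5%, 63.9% and 66.8% of the tumor libraries. The groups did not overlap, and the difference of 57.9 points had the smallest p the design allows (exact two-sided p = 0.1; 0.633 adjusted over 19 tests of single values). Without the largest clonotype of each library the shares were 21.4%, 23.2% and 55.5% in node and 14.3%, 39.7% and 57.98% in tumor, which overlap, with a difference of 3.97 points (exact p = 0.9). With each clonotype counted once, whatever its reads, they were 20.7%, 24.4% and 28.8% in node and 53.5%, 45.7% and 56.1% in tumor. This count keeps 1-base variants of large clonotypes, so clone size can still enter it. TRAJ1 to TRAJ20 took 18.1%, 44.1% and 83.2% in node and 6.32%, 5.86% and 23.0% in tumor (difference -36.8 points, exact p = 0.2).

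The CDR3 sequences were compared for length, junction bases and side-chain properties. CDR3s of 15 residues took the most reads in all 3 node libraries, with 69.8%, 42.6% and 86.2% of WT TDLN 1, 3 and 4. In tumor libraries they took 1.73%, 24.4% and 12.1%. The most frequent length there was 14 residues in WT tumor 2 (87.2%), 13 in WT tumor 3 (45.5%) and 16 in WT tumor 4 (29.6%). The shares of 15 residues do not overlap between tissues, a pattern chosen after its values were seen and not tested. Without the largest clonotypes they were 45.3%, 48.7% and 38.6% in node and 11.8%, 40.7% and 15.3% in tumor, which overlap. Among clonotypes at 0.1% of reads or more, 16 of 47, 29 of 91 and 17 of 51 had 15 residues in node, and 2 of 11, 7 of 23 and 9 of 24 in tumor. The mean length weighted by reads was 14.8, 14.4 and 14.8 residues in node and 14.3, 13.7 and 14.8 in tumor (difference -0.41, exact two-sided p = 0.3). It turned to 0.56 without the largest clonotypes and to 0.14 (exact p = 0.7) without clonotypes read under another letter.

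**Figure D3:**
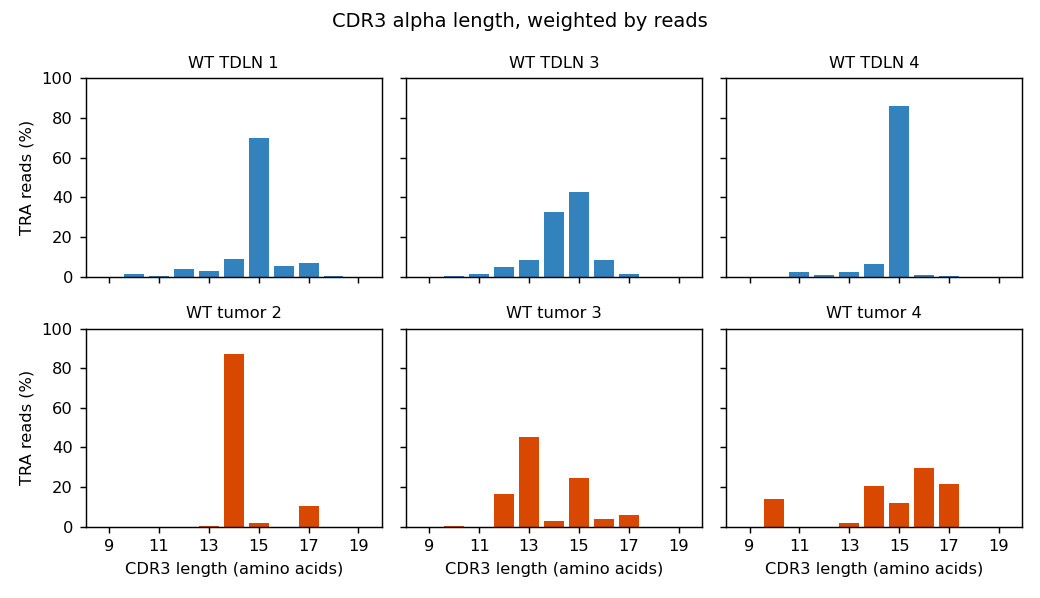
Bars give the percent of productive TRA reads (y axis) at each CDR3 length in amino acids (x axis) for the 3 WT node libraries (blue, top) and the 3 WT tumor libraries (orange, bottom). All 3 node libraries peak at 15 residues (42.6% to 86.2%), and the tumor libraries peak at 14, 13 and 16.

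Weighted by reads, the number of junction bases was lower in every tumor library. The mean weighted by reads was 4.22, 5.72 and 8.30 bases in WT TDLN 1, 3 and 4 and 0.745, 3.43 and 3.02 in WT tumor 2, 3 and 4. The tumor mean was lower by 3.68 bases on average (exact two-sided p = 0.1, the smallest possible; 0.633 adjusted). CDR3s with 0 junction bases took 86.2% of WT tumor 2, among them its leading clonotype, and 18.1% of WT tumor 4, among them a TRAV1 TRAJ28 clonotype of 9.90%, but 0.435% of WT tumor 3 and 0.903% to 2.37% of the node libraries. Without the largest clonotypes the means were 4.402, 5.98 and 5.72 in node and 5.10, 4.396 and 3.02 in tumor (difference -1.19, exact p = 0.2). With clonotypes at 0.1% or more under another letter left out the difference was 0.016 (exact p = 1). With all clonotypes read under another letter left out it was 4.95 (exact p = 0.1), and with each clonotype counted once it was 1.75 (exact p = 0.2). Counted once, the means were 15.2, 13.3 and 12.1 in node and 15.6, 14.5 and 15.7 in tumor. A changed base within the V start or J end makes every base inward of it count as junction. Both settings give weight to 1-base variants with such raised counts, so neither difference describes the joints alone. Clonotypes at 0.1% of reads or more, each counted once, averaged 3.52, 4.70 and 5.09 junction bases in node. In tumor they averaged 4.64, 4.26 and 3.41, so the groups overlap, and no test was run. Over the 15 leading clonotypes of each tissue (5 a library) the median was 4 junction bases in node, with a range of 1 to 10, and 3 in tumor, with a range of 0 to 6. Since the starts were taken from the clonotypes themselves and pooled over copies of a V segment, these counts are approximate.

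The middle of the CDR3, without its first and last 3 residues, was scored for hydropathy (Kyte-Doolittle scale, higher for more hydrophobic) and net charge. Mean hydropathy was -1.66, -1.52 and -2.26 in node and -0.848, -1.52 and -1.80 in tumor (difference 0.43, exact two-sided p = 0.4). Mean net charge was -0.00407, 0.0819 and -0.738 in node and 0.0371, 0.109 and 0.442 in tumor (difference 0.42, exact p = 0.2). In both measures the groups overlap.

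The last comparison asks which node clones were also read in tumor. Within a letter, few were. TDLN 1 and tumor 2 (letter A) shared 0 clonotypes, also at the level of protein sequence. The 44.8% clonotype of WT TDLN 1 was at least 14161-fold lower in WT tumor 2, and the 85.4% clonotype of WT tumor 2 was at least 23419-fold lower in WT TDLN 1, each against the limit of 3 reads in the other library. TDLN 4 and tumor 4 (letter D) shared 2 clonotypes. The larger of them, of TRAV7-4 with TRAJ7, had 55 reads, 0.347%, in node and 592 reads, 0.859%, in tumor. This compares 1 library a side, with no replicate.

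TDLN 3 and tumor 3 (letter C) shared 12 clonotypes, which held 36.3% of the node reads and 1.30% of the tumor reads. Clonotype f of TRAV7-6 with TRAJ42, printed earlier, had 347 reads (0.716%) in node and 717 reads (1.27%) in tumor. It was also 16.1% of KO TDLN 3. The other 11 had 1 to 3 reads in WT tumor 3, and for all 11 the highest share outside the pair was in KO tumor 3. The TRAV7-4 TRAJ7 clonotype, for example, had 5487 reads (11.3%) in WT TDLN 3, 3 reads in WT tumor 3 and 10.2% of KO tumor 3. The TRAV1 TRAJ4 clonotype had 2396 reads (4.94%) in WT TDLN 3, 3 reads in WT tumor 3 and 7.61% of KO tumor 3. The sequences of both are given.
TRAV7-4 TRAJ7: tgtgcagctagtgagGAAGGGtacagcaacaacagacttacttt
TRAV1 TRAJ4: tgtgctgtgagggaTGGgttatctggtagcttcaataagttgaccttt
Of the 39 node clonotypes at 1% or more, 8 had a read in the tumor library of their letter, all 8 in letter C with at most 3 reads. Of smaller ones, 4 of 150 at 0.1% to 1% and 2 of 1796 under 0.1% had one. In tumor libraries of another letter, 6 of 70 comparisons at 1% to 10% and 1 of 8 at 10% or more found a read. Of the 28 tumor clonotypes at 1% or more, 1 had a read in the node library of its letter. In node libraries of another letter, 9 of 42 comparisons at 1% to 10% and 4 of 14 at 10% or more did. The leading bases of WT tumor 3 are counted again under TRAV13-1, at 1.28% with 1-base variants merged. None of the 15 leading tumor clonotypes was read in the node library of its letter, and all 15 were read under another letter, 13 of them at 0.1% or more.

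The largest sharing between a WT node and a WT tumor library joined different letters. WT TDLN 1 and WT tumor 4 shared 85 clonotypes, which held 65.8% of the node reads and 94.96% of the tumor reads. In that pair 12 of the 13 tumor clonotypes at 1% or more had a node read, and 7 of the 14 node clonotypes at 1% or more had a tumor read. The shared clonotypes were not at equal shares. The leading tumor clonotype (TRAV16 TRAJ22, printed earlier) was 1.08% of the node library and 20.9% of the tumor library. A TRAV16 TRAJ32 clonotype was 1.31% and 17.8%, and a TRAV7-4 TRAJ2 clonotype was 0.0462% and 3.83%. These clonotypes made up a small part of the node and a large part of the tumor library.
TRAV16 TRAJ32: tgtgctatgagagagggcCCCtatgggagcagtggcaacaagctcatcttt
TRAV7-4 TRAJ2: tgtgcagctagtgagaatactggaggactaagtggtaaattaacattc
In the other direction, the leading node clonotype (TRAV7-2 TRAJ42) was 44.8% of the node library and 0.998% of the tumor library. A TRAV14-2 TRAJ6 clonotype was 6.68% and 4.37%, and a TRAV16 TRAJ45 clonotype was 5.30% and 3.34%. Of the 13 shared clonotypes at 1% or more on either side, 10 had the higher share in tumor. The same held for 68 of all 85 shared clonotypes, and for 20 of the 24 with 3 reads or more in both. Clonotypes of the node library without a tumor read are not in these counts. With 1 library a side, these differences have no replicate check.

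**Figure D4:**
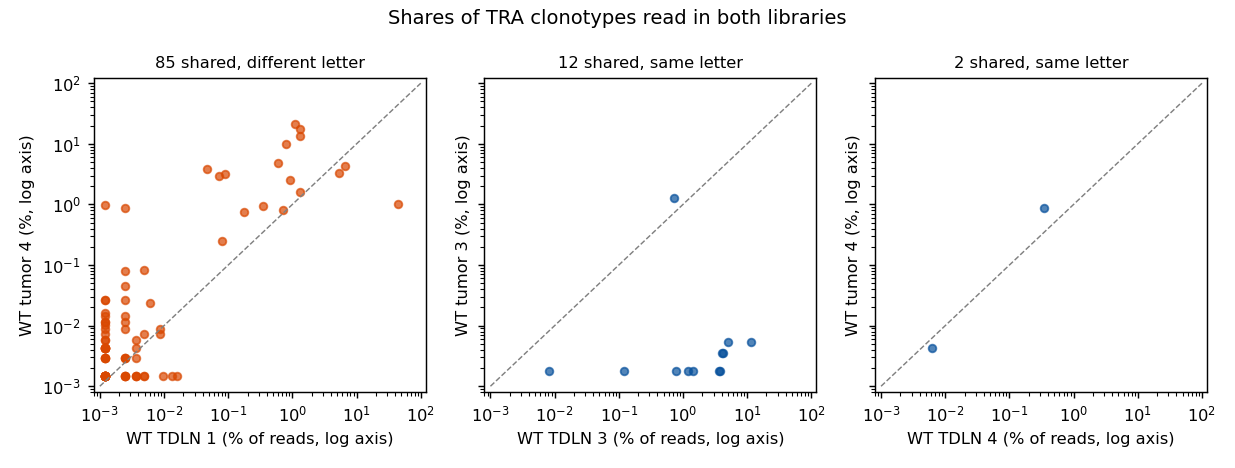
Each point is a TRA clonotype read in both libraries, with its percent of reads in the node library (x, log axis) and in the tumor library (y, log axis); the dashed line marks equal shares. WT TDLN 1 and WT tumor 4, of different letters, share 85 clonotypes up to 44.8% and 20.9%, of which 24 have 3 reads or more in both. In the same-letter pair of number 3 only clonotype f (0.716% and 1.27%) lies off the 1 to 3 read floor of the tumor library.

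Over all 9 pairs of a WT node and a WT tumor library, no excess of sharing was detected in same-letter pairs. Tumor reads in clonotypes with a read in the node library averaged 0.721% over the 3 same-letter pairs and 30.3% over the 6 other pairs (exact one-sided permutation p = 0.667, over 6 ways to join the libraries, of which the smallest p is 0.167). Node reads in clonotypes read in tumor averaged 12.2% and 11.2% (exact p = 0.5). Counting only clonotypes at 0.1% or more of the same-letter tumor library, these node reads were 0%, 0.716% and 0.347% of WT TDLN 1, 3 and 4. Without clonotypes under 0.01% of a library the same minus different letter difference turned to -10.8 points. For TRB, the shared sequences were 0.764% and 1.93% of the union (exact p = 0.667), and WT TDLN 1 and WT tumor 4 shared most, with 343 sequences (8.76%). Counting only clonotypes at 0.1% or more of the node library, which leaves out stray reads, WT tumor 2 had 95.03% of its reads in clonotypes of KO TDLN 1, WT tumor 3 had 87.6% in those of KO TDLN 3 and WT tumor 4 had 82.4% in those of WT TDLN 1. Each WT tumor library was thus covered by a node library of another letter, and by that of its own letter at 0%, 1.30% and 0.859%. The cause of this sharing was not tested.

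**Figure D5:**
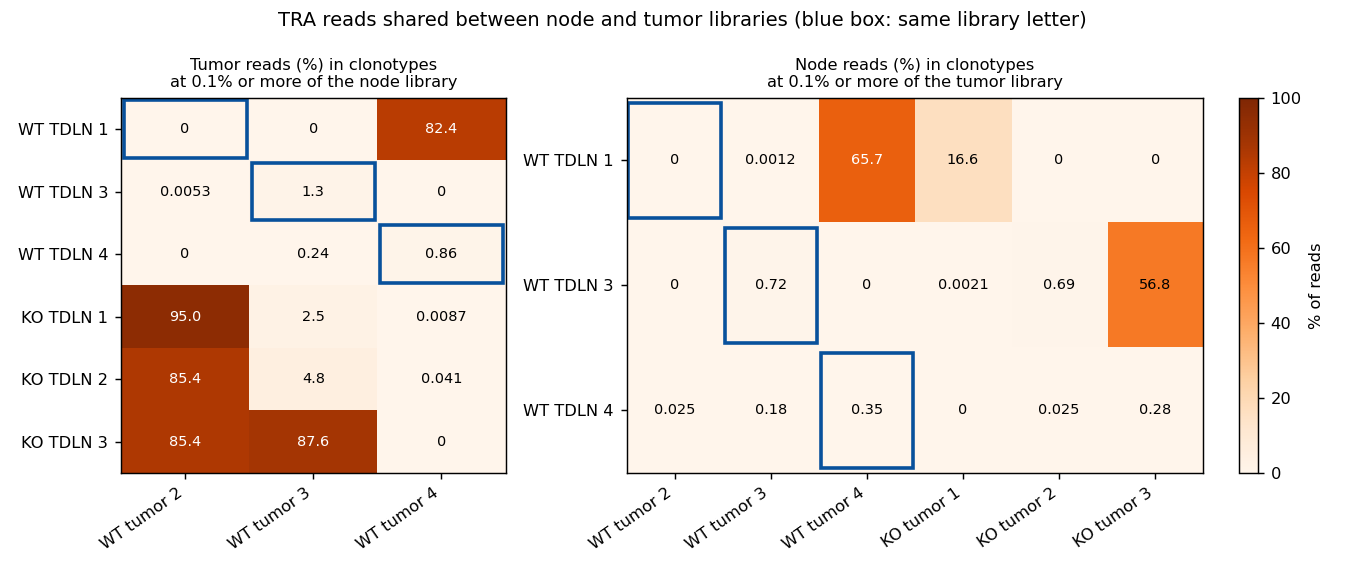
Cells give the percent of reads of 1 library in clonotypes at 0.1% or more of the other, for the 3 WT tumor libraries against all node libraries (left) and the 3 WT node libraries against all tumor libraries (right). Same-letter pairs, in blue boxes, hold 0% to 1.30% of tumor reads, and the fullest cells (82.4% to 95.03% of tumor reads) join different letters.

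Some CDR3 proteins were read with more than 1 nucleotide sequence within a library, with 1-base variants kept. Among proteins at 0.1% of reads or more, counted within 1 V and J, these were 1 of 46, 3 of 88 and 0 of 51 in WT TDLN 1, 3 and 4 and 2 of 9, 0 of 23 and 0 of 24 in WT tumor 2, 3 and 4. In WT TDLN 1, the 44.8% clonotype of TRAV7-2 with TRAJ42 and another of 8.61% encode the same residues and differed by A9C (counted from 1 at the 5′ end of the CDR3, larger clonotype first). The smaller was read in that library alone. Both are printed to show the position.
Larger: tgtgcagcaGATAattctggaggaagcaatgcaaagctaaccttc
Smaller: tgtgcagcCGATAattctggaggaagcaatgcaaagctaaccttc
In WT TDLN 3, TRAV16 TRAJ9 clonotypes at 1.19% and 0.902% encode the same residues and differed by C18G. A further pair in that library, at 0.887% and 0.493%, differed by A9G and A12T. In WT tumor 2 the leading TRAV14-2 TRAJ22 clonotype (85.4%) and another of 0.198% differed by A9G, and TRAV16 TRAJ18 clonotypes at 5.78% and 0.106% differed by G39T. The 0.198% clonotype is a 1-base variant as defined above, and the 0.106% clonotype is also 1 base from a far larger one. For both, base errors and separate rearrangements cannot be told apart.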

How the data were processed

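PolyA RNA was amplified with primers for TCR transcripts, per the labels' protocols, and the submitters' processing notes name the build GRCm39. The deposited row tables are TRUST4 reports, per the file headers. The TRUST4 version and any aligner are not given in the sources used here. The deposited TRA table holds, in each row, the count of reads of 1 CDR3 in 1 library, beside the authors' fraction of the TRA total, which was not used. The deposited metrics sheet holds summary values for each library, called score columns here. Per the file headers, they give shares of the leading TRB and TRA clones and numbers of different sequences. These score values are as deposited by the authors, and how they were computed is not stated in the sources used here. The deposited TRA shares were not compared with the shares computed from the TRA table. A further deposited table lists the count of TRB sequences that 2 libraries have in common. In these files WT tumor 2 bears the number 1, and its library letter and tissue gave the match.

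Rows without an open frame, or holding stops or unread bases, were dropped, which kept 71.9% to 95.2% of the TRA reads of the 6 WT libraries. TRAJ7 CDR3s end 1 base early in the deposited rows, so their frame was judged with that base restored. Duplicated V copies and alleles were pooled. Of 48 V names 41, and of 45 J names 45, were found among RefSeq mouse genes. Lines emptied for this work numbered 13 in the TRA table and 14 in the all-chain sheet. Clonotype numbers were rarefied to 15828 reads. The shared start of a V segment and end of a J segment were taken over all 12 libraries. They needed 5 clonotypes with 60% of them agreeing at each base. CDR3s without a starting cysteine were given no junction count.

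Single values were compared by exact permutation over libraries (20 assignments, smallest two-sided p 0.1) or over ways to join them (6, smallest one-sided p 0.167). Benjamini-Hochberg adjustment ran over these 19 tests, and the lowest adjusted p was 0.633. Segments were tested with edgeR 4.0.16 (R 4.3.3) in all 12 libraries, with DESeq2 1.42.0 and limma 3.58.1 (0.1% or 1% added before log2) as alternatives. Segments needed 10 reads in all and 0.1% in 1 library. The scripts were tested on simulated data. For the segment tests these data had a much smaller spread than the edgeR coefficients of variation of 2.045 (V), 2.267 (J) and 4.03 (V-J pairs) found here. That check therefore cannot show which changes could be detected in these libraries. Deviations from group means of same-letter libraries correlated at -0.154, -0.0746 and -0.359 over TRAV segments and at -0.0368, 0.179 and -0.183 over TRAJ segments, so letters were not used to pair libraries.

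Clonotypes named are the 5 largest of each library, those at 1% or more found in both tissues, and the 5 V, J and V-J pairs of largest mean in each group. The sequences of the widest V-J pair and the synonymous pairs were chosen after their values were seen. The members and lists were chosen with earlier results of these data known.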

Additional observations from a re-analysis of the deposited data

Results flagged for a closer look

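Mean CDR3 hydropathy and mean net charge moved one way from node to tumor in all 3 same-letter pairs of WT and the other way in all 3 of KO. This pattern was searched for among all single values compared over libraries, and only the measures that showed it are given. Charged residues enter both scores, so these are not independent. For hydropathy the tumor minus TDLN difference averaged 0.43 over the WT pairs and -0.31 over the KO pairs. In WT letter C the difference is small, with -1.52 in both libraries. For net charge it averaged 0.42 over the WT pairs and -0.57 over the KO pairs. The difference between genotypes was not tested. The pairs are taken by letter, which the labels do not tie to a mouse. Same-letter libraries share few clonotypes, as described for WT above. Without the largest clonotype of each library the WT differences were 0.17 for hydropathy (exact two-sided permutation p = 0.4) and 0.25 for net charge (exact p = 0.1, the smallest possible). The part of the leading clonotypes in the KO differences was not tested.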

How the results depend on the processing

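No single value reached an exact p under 0.1 in any setting, which 3 against 3 libraries do not allow, so directions are compared here, and causes were not tested. With clonotypes read under another letter left out, the tumor minus TDLN difference turned for clonotypes at equal depth (239.9), clonality (-0.336), the largest clonotype (-25.1 points), the top 10 (-28.99), CDR3 length (0.14), junction bases (4.95) and TRAJ41 to TRAJ61 (4.41). With only those at 0.1% or more under another letter left out, a setting chosen after seeing the data, it turned for clonotypes (167.1), clonality (-0.063), the largest clonotype (-18.3), length (0.0029) and junction bases (0.016). Without the largest clonotype of each library it turned for length (0.56) and TRAJ41 to TRAJ61 (0.068), and with each clonotype counted once for length (0.29) and junction bases (1.75). These settings all kept 1-base variants, which can raise the junction counts. Node reads in tumor clonotypes, same letter minus different, turned with the TRAJ7 frame as deposited (-3.53), with clonotypes by protein sequence (-0.378) and without clonotypes under 0.01% (-10.8). TRAV calls numbered 9 by DESeq2 and 0 by limma with 0.1% or 1% added, with TMM scaling, with WT libraries only, with the TRAJ7 frame as deposited, and without shared or largest clonotypes. DESeq2 called 13 TRAJ segments and 17 pairs. Leaving out 1 library at a time gave differences of -175.7 to -88.2 clonotypes, -14.5 to 20.1 points for the largest clonotype (below 0 without WT TDLN 3 or WT tumor 2), -15.3 to 0.189 effective V-J pairs, -389.5 to 86 TRB sequences, -23.4 to 12.9 points for the top TRB clone, 0 to 1 TRAV calls and 0 to 2 TRAJ calls (2 without WT TDLN 1). Leaving out 1 letter at a time, the same minus different letter difference ran from -0.0517 to 0.000435 for the TRA index, -89.8 to 0.759 for tumor reads, -32.8 to 18.2 for node reads and -4.15 to 0.658 for TRB. The other results kept their direction without any 1 library, with ranges of 0.0282 to 0.186 for clonality, 7.57 to 22.99 for the top 10, -0.66 to -0.12 for length, 0.16 to 0.63 for hydropathy, 0.16 to 0.57 for net charge, -4.61 to -2.57 for junction bases, -51.96 to -19.4, 50.5 to 62.3 and -37.3 to -4.38 points for TRAJ1 to TRAJ20, TRAJ21 to TRAJ40 and TRAJ41 to TRAJ61, and 2.48 to 17.7 for the top 10 TRB clones. The replicate block by library number turned the largest clonotype (-14.6), TRAJ41 to TRAJ61 (0.293) and TRB sequences (12.5) and left 0 TRAV calls. For single values it used only the numbers found in both tissues, which leaves out WT TDLN 1 and WT tumor 2. The block by letter left 0 TRAV calls. For single values its mean difference equals the unpaired one, so no direction could turn and it is no check of them. Neither pairing called a TRAJ segment or a V-J pair.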
